A study of Mus musculus with 3 samples.

Results

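This account follows 9 genes that move, store and release iron (Fth1, Ftl1, Tfrc, Slc40a1, Slc11a1, Slc11a2, Hmox1, Cp and Cd163) through single cells of the mouse cochlea. The genes were chosen by name, and all 9 were among the 32285 genes of the count table, with 1 entry each. The study compared C57BL/6J mice with noise-induced hearing loss (NIHL, 115 dB for 4 h over 3 days), mice with hidden hearing loss (HHL, 110 dB for 2 h) and control mice kept without noise. Cochleae of the noise groups were collected 6 h after exposure ended. Each group was 1 single-cell 3′ RNA library pooled from 6 mice, so no value has a replicate. The cells stand in 1 table whose barcodes end in 1, 2 or 3, and no label ties an ending to a group. The endings are therefore called library 1, 2 and 3, put into no noise group, and given side by side without a test.

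Iron reaches most cells bound to transferrin, which the receptor encoded by Tfrc carries inside, and the transporter encoded by Slc11a2 (DMT1) moves it out of the endosome. Ferritin, a shell of heavy (Fth1) and light (Ftl1) chains, stores it, and ferroportin (Slc40a1) is the known exporter of iron from cells. Ceruloplasmin (Cp) is a copper oxidase that helps released iron bind transferrin. Macrophages recover iron from old red cells: Cd163 takes up hemoglobin bound to haptoglobin, heme oxygenase 1 (Hmox1) opens the heme ring, and Slc11a1 (NRAMP1) moves metal ions out of the phagosome. Erythroid precursors are the largest users of iron in the body, and the inner ear is known to hold resident macrophages and, in its lateral wall, fibrocytes.

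Ferritin, ferroportin and transferrin receptor mRNAs carry iron-responsive elements, hairpins with a CAGUGN loop that iron regulatory proteins bind. In a 5′ UTR the bound protein is known to block translation, and in the Tfrc 3′ UTR to protect the mRNA from decay. These elements are shown because they point to a control that acts partly after the mRNA is made, which RNA counts do not measure. The sequences below were read from GENCODE M21 transcripts (GRCm38, an older build than the GRCm39 of the counts). They run 5′ to 3′ with the loop in capitals.
Fth1, 5′ UTR, chr19:9982733-9982760 (+): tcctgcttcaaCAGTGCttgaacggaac
Ftl1, 5′ UTR, chr7:45459779-45459806 (-): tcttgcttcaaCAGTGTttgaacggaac
Slc40a1, 5′ UTR, chr1:45925465-45925492 (-): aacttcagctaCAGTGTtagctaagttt
Tfrc, 3′ UTR, chr16:32631220-32631247 (+): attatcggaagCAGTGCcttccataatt
Tfrc, 3′ UTR, chr16:32631599-32631626 (+): attatcgggagCAGTGTcttccataatg
Tfrc, 3′ UTR, chr16:32631664-32631691 (+): tatatcggagaCAGTGAtctccatatgt
Tfrc, 3′ UTR, chr16:32631711-32631738 (+): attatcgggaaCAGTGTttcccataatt

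The pattern searched was a C, then 5 bases, the loop CAGTGN, and 5 bases that pair with the first 5 (G with T allowed), on the sense strand. It was found in 4 of the 9 genes, with all their protein-coding transcripts searched. Over all genes it was found in 271 of 21877 protein-coding genes (1.24%), with only the longest such transcript of each searched. Slc11a1, Slc11a2, Hmox1, Cp and Cd163 had no match in the transcripts searched. The pattern allowed no unpaired base among the 5 pairs, so a gene without a match may still carry an element. A match describes letters only and shows no binding in these cells.

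After filtering, 16883, 9602 and 10703 barcodes of libraries 1, 2 and 3 remained, with a median of 5464, 6293.5 and 8098 UMIs (counted molecules). Lineage markers placed 13661, 7952 and 8408 of them in 25 types, and 21 types with at least 20 cells in every library were compared. A type name here means a cell that held at least 50% of that type's markers. Blood cells made up most of the table: mature neutrophils alone were 4127, 2447 and 1781 barcodes. Macrophages were 278, 279 and 459, erythroid cells of both stages 150, 1630 and 1470, and fibrocytes 92, 156 and 286. Hair cells were too few to compare (16, 9 and 0). Between 37 and 57 barcode sequences were shared by each pair of libraries. Levels are CPM, a gene's UMIs per 1000000 of a type's summed UMIs, with exact Poisson 95% intervals that cover counting error only, not differences between mice or dissections.

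Of the 9 genes, 8 had the same highest type in all 3 libraries. Macrophages led for Fth1, Ftl1, Slc40a1, Slc11a1, Hmox1 and Cd163. Late erythroid cells led for Tfrc and early erythroid cells for Slc11a2. Cp was highest in fibrocytes in libraries 1 and 3 and in Cxcl12-abundant stroma, a marrow-type stromal cell, in library 2. The lead of Ftl1, Hmox1, Cd163 and Slc11a1 held in each of the 14 alternative settings. That of Fth1 did not: with TMM factors, an alternative scaling, mature neutrophils led in libraries 1 and 3 and late erythroid cells in library 2. Schwann cells led for Fth1 in library 3 when cells were thinned or averaged with equal weight or gated with 1 fewer marker, and in library 2 with at most 10% mitochondrial UMIs. Late erythroid cells led for Fth1 in library 3 with hemoglobin, S100a8 and S100a9 out of the totals. With TMM factors mature neutrophils also led for Slc40a1 in library 1. For Slc11a2 late erythroid cells took the lead in all 3 libraries with TMM factors, in libraries 2 and 3 with hemoglobin, S100a8 and S100a9 out of the totals, and in library 1 with 1 fewer marker or equal weight per cell. Early erythroid cells led for Tfrc in library 3 after thinning or with equal weight per cell. Thinning left 5 of the 9 genes with 1 highest type. Slc11a2 then had few UMIs, and late erythroid cells, macrophages and pro-B or pre-B cells led for it in libraries 1, 2 and 3.

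**Figure D1:**
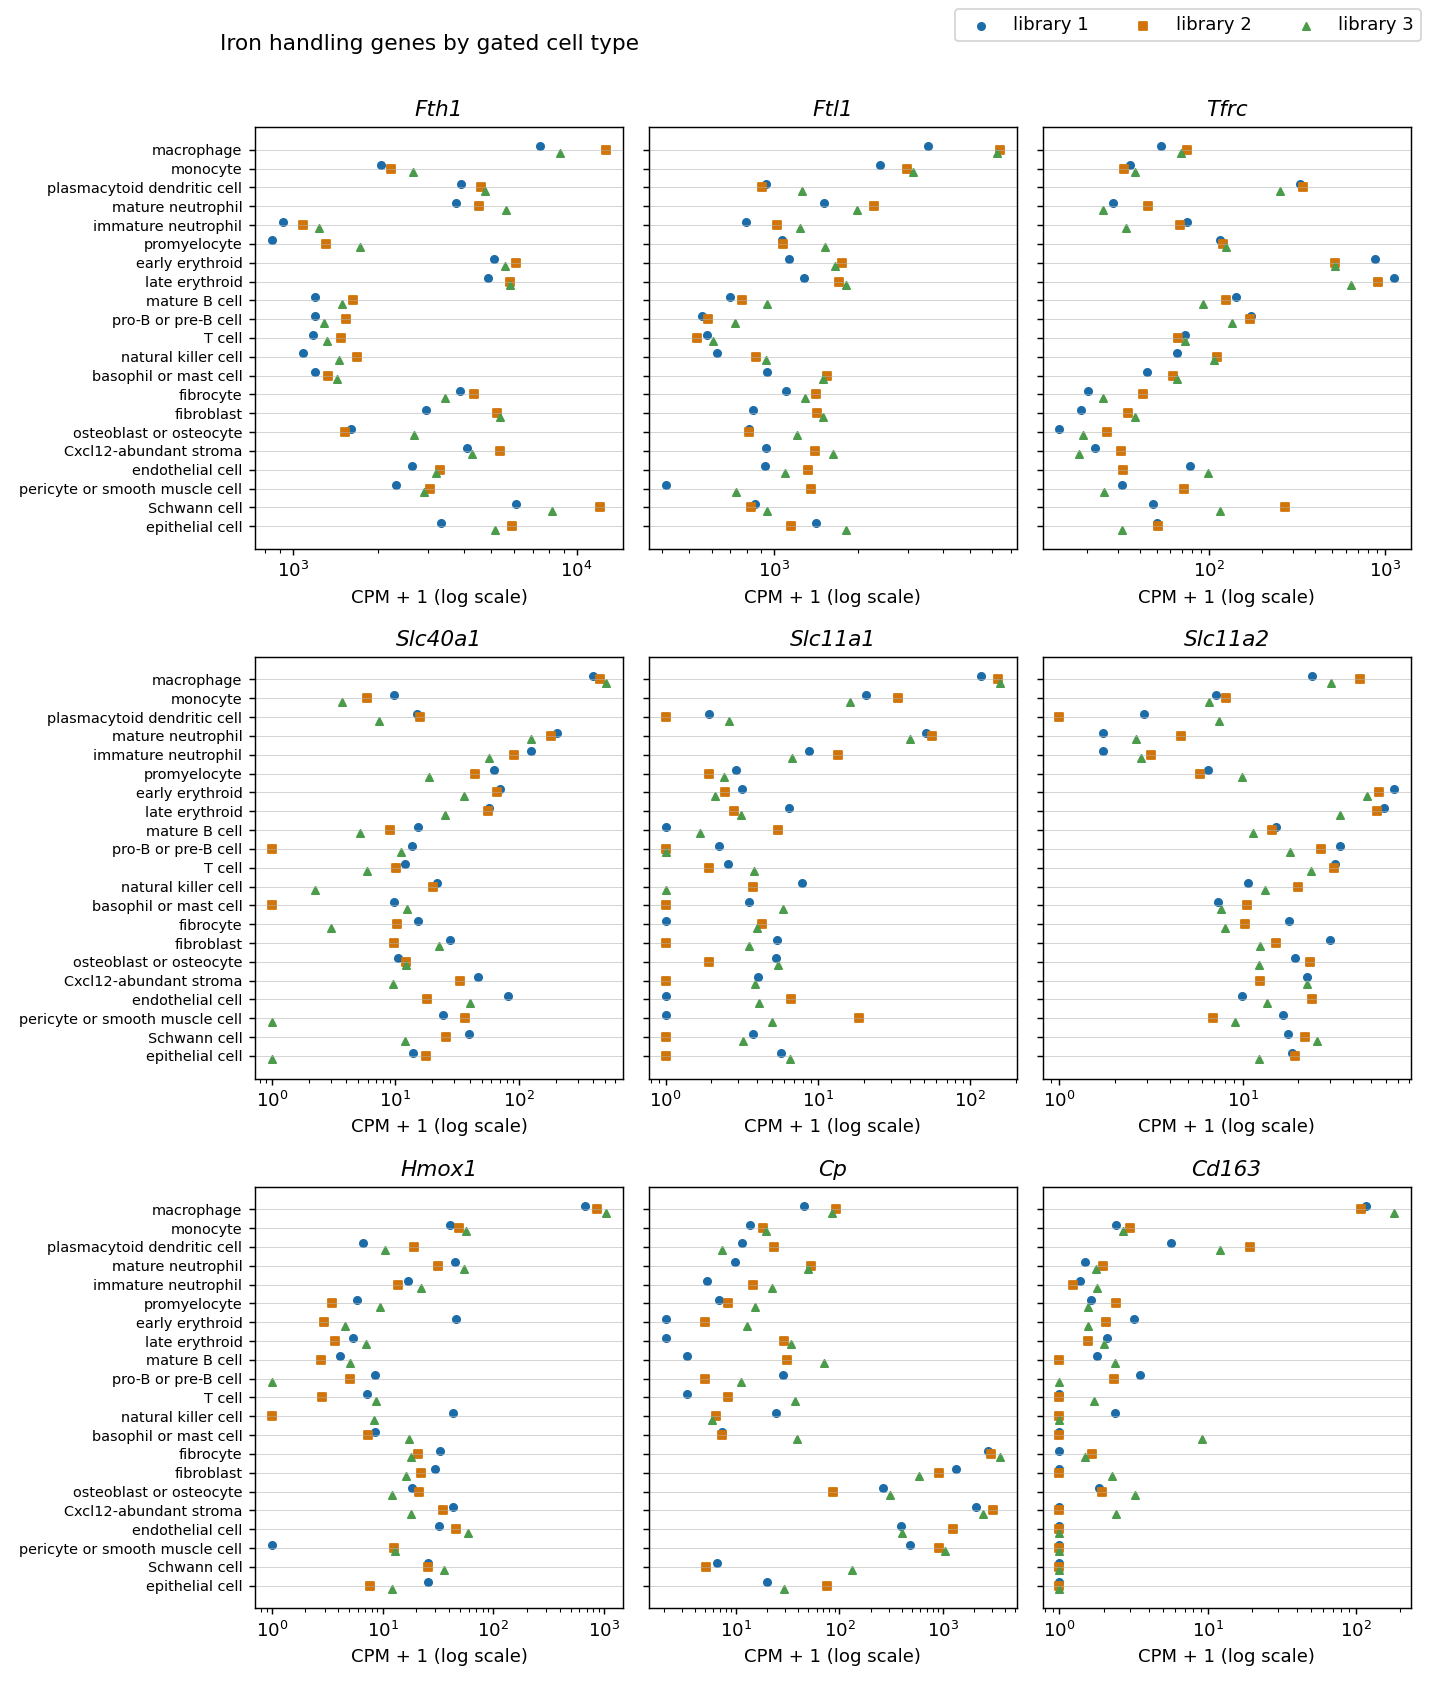
CPM plus 1 on a log axis for each gene (panels) in the 21 compared types (rows), with 1 point per library. Hmox1 and Cd163 stand far to the right in macrophages only, Tfrc in the 2 erythroid rows, and Cp in the stromal rows.

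Macrophages carried more RNA than all other gated cells for storage, export, heme breakdown and hemoglobin uptake. By a call of at least 2-fold in the same direction in every library, 6 of the 9 genes were higher and 0 were lower, against 8.63% of 18093 genes higher and 5.33% lower. Tfrc, Slc11a2 and Cp were not called.

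Cd163, the hemoglobin scavenger receptor, had the sharpest contrast of the 9. It stood at 116, 107 and 180 CPM in macrophages (intervals 98.9 to 135, 94.2 to 121 and 166 to 194), against 0.80, 1.04 and 1.01 CPM in the other gated cells. Macrophages, 2.03%, 3.51% and 5.46% of gated cells, held 66.5%, 76.7% and 85.4% of its UMIs. After each cell was thinned to 1000 UMIs, a Cd163 UMI was seen in 9.96%, 9.96% and 11.8% of macrophages. In monocytes the thinned share was 0.077%, 0.181% and 0.358%, and in T cells, which should lack it, 0 of 213, 214 and 163 cells. Without thinning these shares were 19.8%, 18.3% and 26.4% of macrophages (median 3745.5, 7032 and 7029 UMIs) and 0%, 0% and 0.613% of T cells (median 3981, 4226 and 5906 UMIs). The next type was the plasmacytoid dendritic cell, at 4.70, 18.4 and 11.2 CPM, a level that rested on fewer than 20 UMIs summed over the libraries.

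Hmox1, the heme-degrading enzyme, reached 668, 862 and 1049 CPM in macrophages, against 23.6, 16.1 and 23.9 CPM in the other gated cells. That is 28.4-fold, 53.6-fold and 44.0-fold. Monocytes (39.3, 47.9 and 55.9 CPM), endothelial cells (31.3, 45.5 and 58.0 CPM) and mature neutrophils (43.7, 30.7 and 53.1 CPM) came next by the median of the 3 libraries. The order differed between libraries: in library 1 early erythroid cells (44.7 CPM), natural killer cells (42.7 CPM) and Cxcl12-abundant stroma (42.5 CPM) were above monocytes. The next enzyme of the chain, biliverdin reductase (Blvra), was also higher in macrophages: 109, 110 and 130 CPM, against 19.7, 33.8 and 37.0 CPM. Slc48a1 (HRG1), which brings heme out of the phagolysosome, stood at 81.1, 132 and 131 CPM in macrophages and at 35.5, 47.0 and 37.8 CPM in the other cells.

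Slc40a1, the iron exporter, stood at 396, 450 and 510 CPM in macrophages (intervals 364 to 430, 423 to 478 and 487 to 533), against 85.4, 63.5 and 31.4 CPM in the other gated cells. The fold was 4.64, 7.09 and 16.3 in libraries 1, 2 and 3, the level in the other cells being lowest in library 3. Slc11a1, the phagosomal metal transporter, stood at 117, 151 and 156 CPM in macrophages and at 15.4, 14.8 and 8.34 CPM in the rest. Mature neutrophils were next in order for both transporters.

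The 2 ferritin chains were abundant everywhere, so their contrast was smaller. Fth1, the heavy chain with the oxidase activity, stood at 7432, 12712 and 8719 CPM in macrophages, against 1850, 3905 and 3561 CPM. Ftl1, the light chain, stood at 3544, 6388 and 6249 CPM in macrophages, against 1339, 1778 and 1906 CPM. Both calls depended on the scaling. With TMM factors, which lowered the log2 ratio of every gene in this comparison by 0.43, 0.40 and 0.32 in libraries 1, 2 and 3, Fth1 was 2.98-fold, 2.46-fold and 1.96-fold higher and Ftl1 1.97-fold, 2.72-fold and 2.63-fold higher. Each thus missed the 2-fold call in 1 library.

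The 6 lists of other iron genes (48 genes, chosen with earlier results of these data known) add detail to the macrophage pattern. Of 12 uptake genes 1 was higher, Trf, which encodes transferrin itself: 611, 986 and 864 CPM, against 49.5, 69.7 and 33.7 CPM. That count is near the background of 8.63%. In the same list Tfr2 and Steap4 were lower. Of 8 sensing genes measured 2 were higher: Hfe, a partner of the transferrin receptor (34.9, 63.3 and 63.7 CPM, against 6.44, 5.10 and 6.90 CPM), and Aco1, which encodes iron regulatory protein 1 (27.8, 27.8 and 29.3 CPM, against 10.7, 12.6 and 14.2 CPM). Of 10 heme genes 3 were higher (Blvra, Slc48a1 and Lrp1) and 1 was lower, Hp, the hemoglobin-binding haptoglobin. With the libraries summed, Trf and Aco1 were highest in Cxcl12-abundant stroma and Lrp1 in fibroblasts, not in macrophages. All 5 genes known from red pulp macrophages of the spleen were higher, with a median log2 ratio of 6.29, against 0.31 over all genes tested. Spic, the transcription factor of that cell, stood at 164, 101 and 372 CPM in macrophages and at 0.42, 0.36 and 1.09 CPM in the rest. None of 6 mitochondrial genes was called. Of 3 genes of iron-binding defence and export 0 were higher and 2 were lower, Ltf (lactoferrin) and Lcn2 (lipocalin 2).

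Markers of other cells were also counted in macrophages, and their part in these results was not tested. Hbb-bs, a hemoglobin chain that macrophages are not known to make, stood at 1917, 11656 and 19356 CPM in macrophages, against 35.4, 2724 and 1292 CPM in monocytes. S100a8, a neutrophil gene, stood at 14027, 2927 and 3000 CPM in macrophages and at 7808, 3707 and 6163 CPM in monocytes. Cd163 and Hmox1 were at most 2.18 and 44.7 CPM in the early and late erythroid gates. The higher Hmox1 value came from library 1, where 41 UMIs lay in 5 of 59 cells and 24 of them in 1 cell.

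Within macrophages, Slc40a1, Hmox1, Cd163 and Tfrc were higher in the cells that expressed Vcam1, an adhesion molecule known from red pulp macrophages and from macrophages of marrow erythroblastic islands. Cells with at least 2 Vcam1 UMIs numbered 123, 135 and 290, and cells with 0 Vcam1 UMIs 122, 121 and 136. The Vcam1-high cells were 44.2% (38.3 to 50.3), 48.4% (42.4 to 54.4) and 63.2% (58.6 to 67.6) of all macrophages in libraries 1, 2 and 3, with exact Clopper-Pearson intervals. The median depth was 3928, 7644 and 7587 UMIs in Vcam1-high cells, against 3888.5, 7042 and 6438 UMIs in cells without Vcam1. Of the 9 genes 4 were higher in Vcam1-high cells and 0 lower, against 2.97% of 10707 genes higher and 1.32% lower. After thinning to 1000 UMIs a cell the same 4 were higher, against 3.41% of genes higher and 1.31% lower.

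Slc40a1 stood at 843, 798 and 745 CPM in Vcam1-high macrophages, against 35.5, 23.2 and 24.9 CPM in those without Vcam1, which is 23.8-fold, 34.4-fold and 29.9-fold. The macrophages without Vcam1 were thus below mature neutrophils in this gene. Hmox1 stood at 1352, 1504 and 1508 CPM in Vcam1-high cells and at 128, 69.7 and 103 CPM in cells without Vcam1. Cd163 stood at 222, 161 and 258 CPM, against 35.5, 32.1 and 23.9 CPM.

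Fth1 did not follow the split, at 7660, 12151 and 9092 CPM in Vcam1-high cells and 7687, 13870 and 7921 CPM in cells without Vcam1. Ftl1 was 1.56-fold, 1.56-fold and 1.54-fold higher in Vcam1-high cells, a small ratio that hardly varied between libraries and was below the call. Slc11a1 was not called either, at 142, 165 and 188 CPM in Vcam1-high cells and 77.5, 136 and 88.6 CPM in cells without Vcam1. C1qa, a complement gene that marks macrophages, stood at 2705, 3787 and 4490 CPM in Vcam1-high cells and 2570, 3721 and 4417 CPM in cells without Vcam1. Spic, Cd5l, Axl and Mrc1 were also higher in Vcam1-high cells, by at least 2.33-fold in each library. Treml4, also known from red pulp macrophages, was not called, at 1.65-fold, 7.51-fold and 6.76-fold. Of the other macrophage markers examined, Csf1r was 0.69-fold, 0.60-fold and 0.63-fold, and Ms4a7 0.87-fold, 0.78-fold and 0.77-fold. Adgre1 was 1.39-fold, 1.05-fold and 1.29-fold, and none of these was called.

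**Figure D2:**
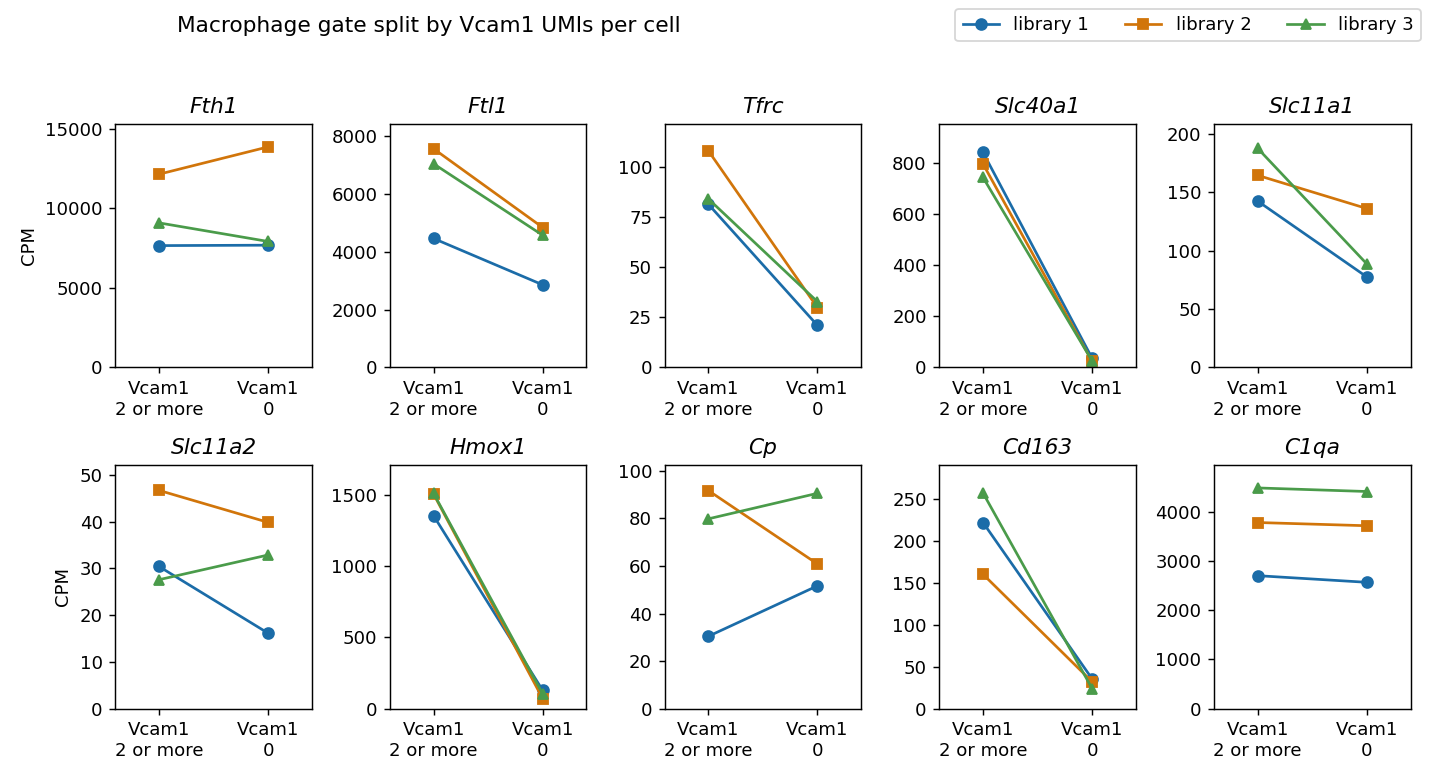
CPM (linear axis from 0) of the 9 genes and C1qa in macrophages with at least 2 Vcam1 UMIs (left) and with 0 (right), with 1 line per library. Slc40a1, Hmox1 and Cd163 drop steeply in cells without Vcam1, whereas Fth1 and C1qa stay nearly level.

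Tfrc was the fourth gene called, at 81.6, 108 and 84.3 CPM in Vcam1-high cells, against 21, 29.9 and 32.8 CPM. Markers of other cells moved with the split, and their part was not tested. S100a8, the neutrophil gene, stood at 18016, 3064 and 3530 CPM in Vcam1-high cells, against 10348, 1535 and 1903 CPM in cells without Vcam1. The 13 erythroid markers summed to 158, 475 and 396 CPM in Vcam1-high cells, with 3, 0 and 0 markers at 0, against 11.3, 142 and 72.7 CPM in cells without Vcam1, with 8, 1 and 1 markers at 0. Hbb-bs stood at 4225, 18300 and 28254 CPM, against 59.7, 1748 and 1155 CPM. Among macrophages with no UMI of these 13 markers (76, 31 and 99 Vcam1-high cells, 115, 47 and 86 without), a restriction chosen after the values were seen, Tfrc was 4.28-fold, 1.87-fold and 2.21-fold higher and missed the call. Hemoglobin RNA remained in these cells, with Hbb-bs at 623, 1791 and 2662 CPM in Vcam1-high cells, against 66.5, 1598 and 966 CPM. In the same cells Slc40a1 was 17.9-fold and 33.3-fold higher in libraries 1 and 3, and in library 2 it had 130 UMIs in Vcam1-high cells and 1 UMI in cells without Vcam1. Hmox1 was 7.95-fold, 11.5-fold and 9.58-fold higher there.

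A split by Cd163 itself, also chosen after the values were seen, gave 2 genes higher (Slc40a1 and Hmox1) and 0 lower, against 1.52% of genes higher and 0.799% lower. Cells with at least 2 Cd163 UMIs (37, 40 and 84) had 935, 1306 and 1040 CPM of Slc40a1, against 260, 296 and 332 CPM in cells with 0 (223, 228 and 338). Hmox1 stood at 1456, 2411 and 2335 CPM, against 505, 581 and 681 CPM.

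Erythroid cells had the highest levels of Tfrc and Slc11a2, which act together in the transferrin cycle. Of the 9 genes Tfrc and Slc11a2 were higher than in all other gated cells, against 6.62% of genes higher, and Slc11a1 and Cp were lower, against 19.3% lower. Tfrc stood at 999, 645 and 548 CPM in erythroid cells, against 67.3, 64.5 and 60.8 CPM in the others, or 14.8-fold, 10.0-fold and 9.01-fold. Slc11a2, the endosomal exporter of the same pathway, stood at 61.6, 53.8 and 43.1 CPM, against 5.0, 8.98 and 7.38 CPM. These cells held 21%, 84.8% and 79.2% of all Tfrc UMIs of gated cells, library 1 having the fewest erythroid cells.

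Tfrc was seen in 91.2% to 100% of unthinned erythroid cells apart from late cells of library 3, where it was 65.8%. At 1000 UMIs a cell the shares were 59.3%, 46.5% and 41.9% of early and 67.0%, 54.0% and 31.3% of late erythroid cells, against 5.63%, 5.61% and 6.75% of T cells. Between the stages, Tfrc stood at 1119, 907 and 638 CPM in late cells and at 878, 517 and 516 CPM in early cells. None of the 9 genes was called between late and early cells, against 0.585% of 12812 genes higher and 4.48% lower. The Slc11a2 intervals of both stages were apart in library 3 only.

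The order within the lineage was clearer by hemoglobin content, with levels given as CPM of the UMIs other than hemoglobin. Across cells with under 1%, 1 to 10%, 10 to 30% and at least 30% hemoglobin UMIs, Tfrc stood at 375, 978, 1936 and 2647 CPM in library 1. In library 2 it stood at 393, 648, 1240 and 2026 CPM, and in library 3 at 377, 861, 1409 and 1111 CPM. The last step was upward in libraries 1 and 2 and downward in library 3. The first bin of library 1 held 14 cells and the last 23.

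Ferritin light chain was highest in the cells richest in hemoglobin in all 3 libraries: from the lowest to the highest bin Ftl1 stood at 1066, 1329, 1406 and 2335 CPM, at 1527, 2200, 2395 and 3707 CPM, and at 1439, 2299, 2412 and 5782 CPM in libraries 1, 2 and 3. Ncoa4, the receptor that sends ferritin to autophagy, stood at 42.5, 27.6 and 26.1 CPM in the lowest bin and at 277, 456 and 694 CPM in the highest. Slc25a37 (mitoferrin 1), the mitochondrial iron importer of red cell precursors, stood at 74.4, 54.9 and 42.5 CPM in the lowest bin and at 3927, 5165 and 2694 CPM in the highest. Steap3, the endosomal ferrireductase, ran the other way in libraries 2 and 3: 100.2 and 90.8 CPM in the lowest bin and 36.7 and 27.9 CPM in the highest. Fth1 stood at 3481, 4936 and 4564 CPM in the lowest bin and at 6798, 10684 and 10254 CPM in the highest. How many of all genes rose along these bins was not counted. Median depth moved along the same axis, with 18812, 42922 and 40158 UMIs in the lowest bin and 4361, 6877 and 7566.5 in the highest, and its part was not tested.

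**Figure D3:**
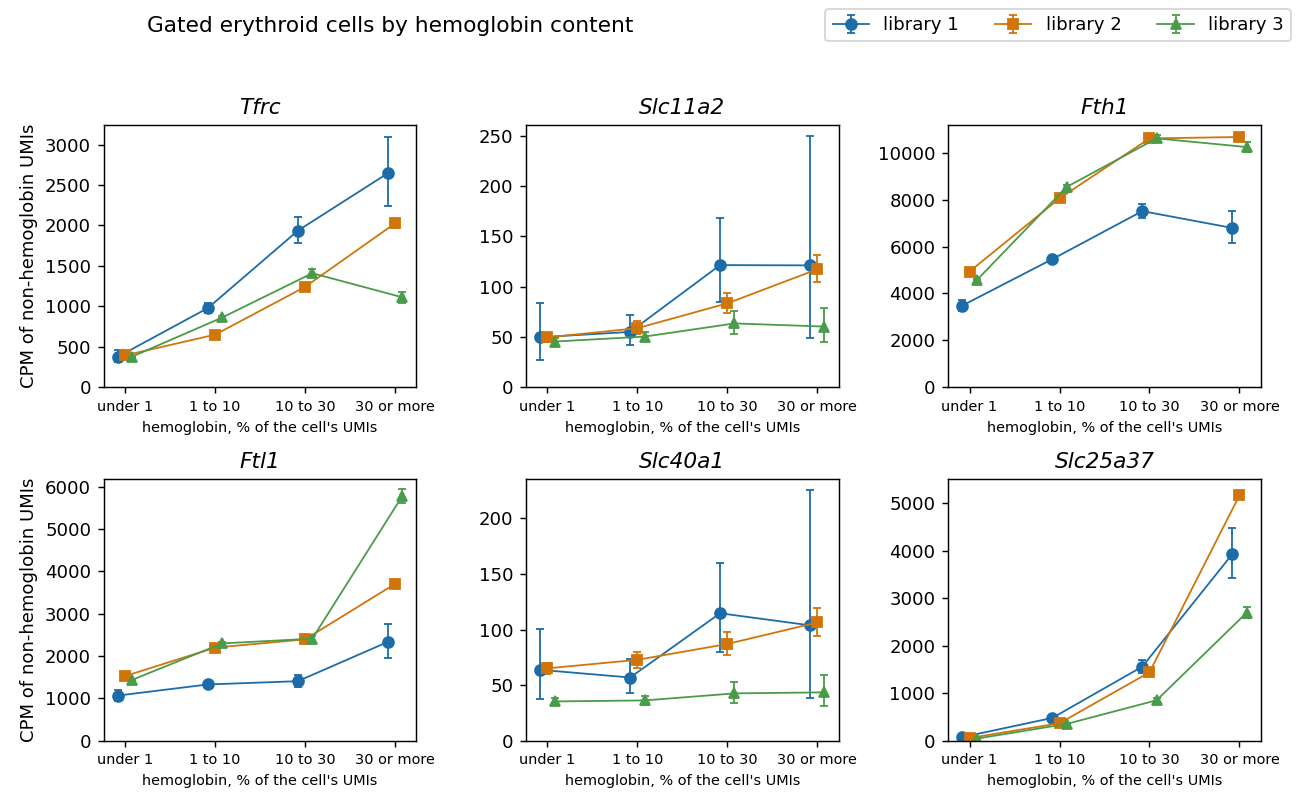
CPM of non-hemoglobin UMIs (linear axis, bars are 95% Poisson intervals) for 5 of the genes and Slc25a37 in erythroid cells binned by hemoglobin share, with 1 line per library. Slc25a37 climbs in every library and Tfrc climbs in libraries 1 and 2. Slc40a1 stays between 35.3 and 115 CPM, and climbs from 65.0 to 106 CPM in library 2.

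From the lists, erythroid cells were higher in 3 of 12 uptake genes, 1 of 8 sensing genes, 1 of 10 heme genes, 3 of 6 mitochondrial genes and 0 of the 3 defence and 5 red pulp genes, against 6.62% of all genes. They were lower in 2 uptake (Trf and Steap4), 2 sensing (Fbxl5 and Hfe), 3 heme (Hmox2, Hp and Lrp1), 2 defence (Ltf and Lcn2) and 3 red pulp genes (Vcam1, Axl and Treml4), against 19.3%. The uptake genes were Tfr2 (63.8, 44.7 and 46.8 CPM, against 1.06, 2.69 and 2.02 CPM), Steap3 and Slc39a8, a metal importer. With the libraries summed, Steap3 was highest in fibroblasts (234, 346 and 407 CPM) and Slc39a8 in endothelial cells (112, 71.1 and 121 CPM). The sensing gene was Erfe, the erythroid hormone known to lower hepcidin, at 9.27, 6.28 and 2.95 CPM, against 0.32, 0.31 and 0.25 CPM. The heme gene was Blvrb (1398, 1290 and 1486 CPM, against 21.7, 77.1 and 79.0 CPM), and the mitochondrial genes included Slc25a37 and Glrx5. The mitochondrial list had a median log2 ratio of 1.74, against -0.50 over all genes tested.

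Cells of the fibrocyte gate, which does not place them within the cochlea, had high Cp. Of the 9 genes Cp was higher than in all other gated cells, against 21.1% of genes higher, and Tfrc, Slc40a1 and Slc11a1 were lower, against 8.15% lower. A count of 1 in 9 is below that background share. Its size was large, at 2723, 2933 and 3555 CPM in fibrocytes, against 25.9, 58.5 and 48.1 CPM. In thinned cells a Cp UMI was seen in 85.9%, 87.2% and 89.5% of fibrocytes, against 0.469%, 0% and 1.84% of T cells (1 of 213, 0 of 214 and 3 of 163). Unthinned, the shares were 96.7%, 98.7% and 97.9% of fibrocytes (median 5895.5, 7158.5 and 5354 UMIs) and 1.4%, 3.74% and 4.91% of T cells.

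Cp was not particular to fibrocytes. Cxcl12-abundant stroma had 2100, 3017 and 2444 CPM, below fibrocytes with intervals apart in libraries 1 and 3 and level with them within the intervals in library 2. Pericytes or smooth muscle cells followed at 480, 915 and 1041 CPM, fibroblasts at 1341, 908 and 581 CPM and endothelial cells at 394, 1243 and 404 CPM. Epithelial cells had 18.7, 74.9 and 28 CPM. Fibrocytes expressed little of the exporter whose iron Cp is known to oxidise: Slc40a1 stood at 14.2, 9.28 and 2.00 CPM, with 11, 14 and 4 UMIs in all. Slc11a1 had 0, 5 and 6 UMIs there.

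From the lists, fibrocytes were higher in 4 of 12 uptake genes, 1 of 8 sensing genes, 1 of 10 heme genes, 1 of 3 measured genes of iron-binding defence and export, 0 of 6 mitochondrial genes and 2 of 5 red pulp genes, against 21.1% of all genes. They were lower in 1 heme gene (Hp), 2 defence genes (Ltf and Lcn2) and 1 mitochondrial gene (Slc25a37), against 8.15%. Trf stood at 1144, 1154 and 658 CPM in fibrocytes, against 49.0, 76.2 and 49.7 CPM. Scara5, a ferritin receptor, stood at 94.4, 98.1 and 102 CPM, against 1.36, 3.31 and 3.00 CPM. Steap3 and Slc39a14, both known for iron uptake, Hfe and Lrp1 were higher too. Heph (hephaestin), the membrane relative of ceruloplasmin, was at 10.3, 7.96 and 12.5 CPM, against 0.49, 0.46 and 0.56 CPM. With the libraries summed, none of these named genes was highest in fibrocytes. Scara5 (132, 201 and 243 CPM), Steap3 and Lrp1 were highest in fibroblasts and Trf in Cxcl12-abundant stroma. Heph was highest in endothelial cells, Hfe in macrophages and Slc39a14 in plasmacytoid dendritic cells.

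Neutrophils, being many, also held much of the ferroportin RNA, and the stages differed. This comparison was added after the values were seen and was not recomputed under the alternative settings. Across promyelocytes, immature and mature neutrophils, Slc40a1 stood at 61.9, 124 and 204 CPM in library 1, at 42.9, 90.2 and 183 CPM in library 2 and at 17.7, 56.4 and 124 CPM in library 3. Each step was upward with intervals apart in each library. Mature neutrophils held 36.3%, 29.8% and 21.2% of all Slc40a1 UMIs of gated cells, against 30.2%, 30.8% and 21.2% of the cells. Immature neutrophils held 37.7%, 14.0% and 14.6% of these UMIs, against 25.6%, 11.4% and 11.3% of the cells. Macrophages held 5.97%, 18.4% and 34.9% of the UMIs. Erythroid cells of both stages held 1.24%, 29.6% and 20.6% of the UMIs, close to the share of mature neutrophils in libraries 2 and 3.

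Of the 9 genes 4 (Fth1, Slc40a1, Slc11a1 and Hmox1) were higher in mature neutrophils than in promyelocytes and 1 (Tfrc) was lower, against 11.9% of 14011 genes higher and 34.3% lower. Median depth was 2875, 3154 and 4332 UMIs in mature neutrophils and 13579, 15394.5 and 21276 in promyelocytes, and its part was not tested. Slc11a1 stood at 50.1, 55.3 and 39.3 CPM in mature neutrophils and at 1.92, 0.93 and 1.42 CPM in promyelocytes. Tfrc stood at 27.2, 43.7 and 23.7 CPM in mature cells and at 114, 119 and 124 CPM in promyelocytes. Fth1 stood at 3763, 4525 and 5643 CPM in mature cells, against 844, 1305 and 1730 CPM in promyelocytes, and immature cells did not lie between them in libraries 2 and 3. Fbxl5, whose protein senses iron and marks iron regulatory protein 2 for breakdown, stood at 411, 371 and 421 CPM in mature neutrophils, the highest of the compared types, against 39.7, 27.4 and 30.8 CPM in promyelocytes. The iron-binding proteins lactoferrin (Ltf, 13678, 9342 and 9235 CPM) and lipocalin 2 (Lcn2, 13031, 12942 and 18148 CPM) peaked in immature neutrophils.

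**Figure D4:**
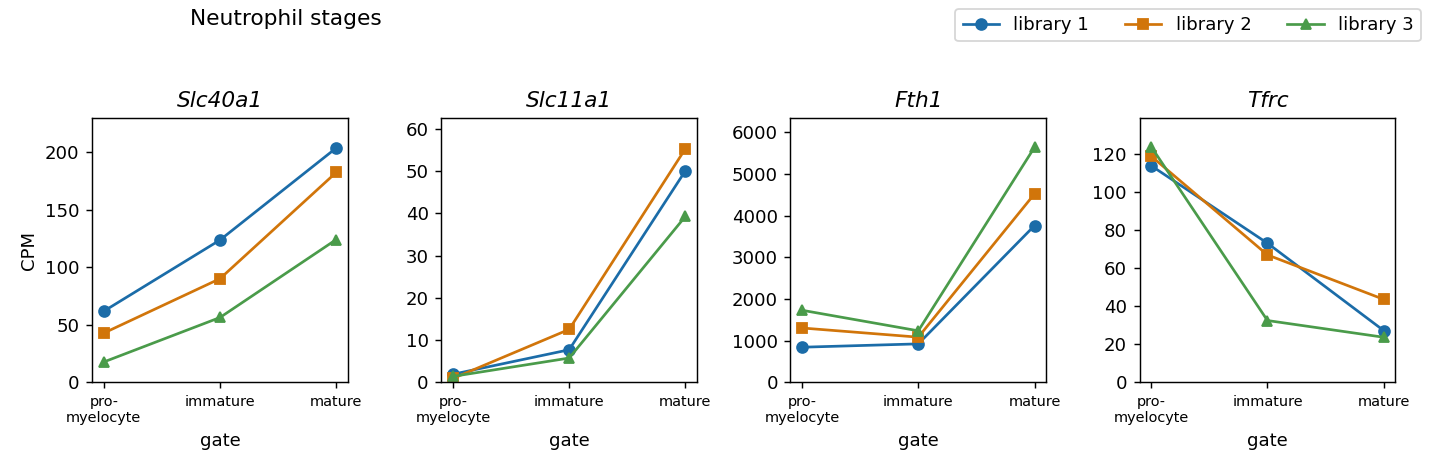
CPM (linear axis from 0) of 4 genes in the promyelocyte, immature and mature neutrophil gates, with 1 line per library. Slc40a1 and Slc11a1 climb and Tfrc descends in each library, and the Slc40a1 lines keep library 1 on top and library 3 at the bottom.

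The balance of the ferritin chains varied by type. Because 3′ UMI counts do not grow with transcript length, the ratio of Fth1 to Ftl1 UMIs was set side by side between types. It was low in monocytes (0.864, 0.743 and 0.842), basophils or mast cells (1.27, 0.860 and 0.959), immature neutrophils (1.16, 1.06 and 1.0) and promyelocytes (0.787, 1.21 and 1.14). Monocytes were lowest in libraries 2 and 3 and promyelocytes in library 1. Macrophages had 2.10, 1.99 and 1.4, early erythroid cells 4.53, 3.50 and 3.40, and plasmacytoid dendritic cells 4.14, 5.08 and 3.77. Schwann cells, the myelinating glia of the auditory nerve, had the highest ratio of the compared types, 7.1, 14.6 and 8.65. Their Fth1 level, 6098, 12092 and 8191 CPM, was below macrophages with intervals apart in all 3 libraries. Reads of the near-identical pseudogene Ftl1-ps1 were 0.61%, 0.83% and 0.61% of the Ftl1 UMIs, and how the authors' counting split the pair is not known.

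Intermediate cells of the stria vascularis or melanocytes were too few to compare, with 11, 26 and 17 cells. Their Fth1 level was 19367, 21907 and 24823 CPM, above macrophages in each library, and their ratio of Fth1 to Ftl1 was 10.4, 6.05 and 8.64. Plasmacytoid dendritic cells were next after erythroid cells for Tfrc, at 327, 338 and 251 CPM. Slc11a2 was lower in the other compared types than in erythroid cells, with T cells at 30.6, 30.3 and 22.5 CPM. Macrophages had 22.8, 42.5 and 29.3 CPM of it, above T cells in libraries 2 and 3.

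Genes whose pattern over the 63 pairs of type and library was most like each member were ranked by Pearson's r of log2(CPM + 1) among 8021 genes, as a description. The points share libraries and depth. For Cp these were Serping1 (0.95), Lox (0.94) and Colec12 (0.94), and for Cd163 Timd4 (0.83), Itgad (0.82) and Retnla (0.81). For Tfrc they included the DNA replication and repair genes Mcm2 (0.82) and Brca2 (0.81). For Ftl1 they were Creg1, Clec4a1 and Aif1 (0.74 to 0.76), for Hmox1 Tmem106a, Ctsd and Sirpa (0.71 to 0.73) and for Slc11a1 Tlr13, Klra2 and 1600010M07Rik (0.72 to 0.76). For Fth1 they were Itsn1, Eid1 and Spire1 (0.71 to 0.75), for Slc11a2 Prdx2, Ube2o and Nudt9 (0.72 to 0.73) and for Slc40a1 Pilrb1, Fcgr4 and Il1rn (0.65 to 0.69). Among the 9 genes themselves the highest r was 0.69 (Ftl1 with Slc11a1) and the lowest -0.59 (Tfrc with Cp).

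Between libraries, 38 of 149 pairs of gene and type (25.5%) differed by at least 2-fold between the highest and lowest library with intervals apart, against 14.5% of 202026 pairs over all genes. That background ran from 7.68% to 43% of genes in single types, the highest in late erythroid cells. Cp made up 17 of the 38 and Slc40a1 8. The called share was 81.0% of the Cp pairs, 44.4% for Slc40a1, 28.6% for Slc11a1 (2 of 7) and 25% for Hmox1 (4 of 16). It was below the 14.5% background for Tfrc (14.3%), Slc11a2 (11.1%), Fth1 (1 of 21), Ftl1 (1 of 21) and Cd163 (0 of 6). The excess thus rested largely on Cp and was not shared by the genes as a set. Since each library is 1 pool that no label ties to a noise group, all these calls are differences between libraries and not between noise groups.

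Slc40a1 tended one way across types. In 14 of 18 types it was highest in library 1, and in 14 of 18 lowest in library 3. The same counts over all genes were not made. All 8 called types were highest in library 1, and 7 of them lowest in library 3. Monocytes had 8.68, 4.92 and 2.73 CPM (3.18-fold), immature neutrophils 124, 90.2 and 56.4 CPM (2.19-fold) and promyelocytes 61.9, 42.9 and 17.7 CPM (3.49-fold), types in which 14.6%, 16.1% and 20.4% of all genes were called. Late erythroid cells had 56.8, 54.8 and 24.3 CPM (2.34-fold), where 43% of genes were called. Macrophages ran the other way, at 396, 450 and 510 CPM, while their Vcam1-high cells had 843, 798 and 745 CPM, and neither passed 2-fold. S100a8, a gene of the neutrophils that also carry Slc40a1, was also highest in library 1 and lowest in library 3 in cells that should lack it. T cells had 13183, 1914 and 1441 CPM of S100a8 and late erythroid cells 9224, 2398 and 1828 CPM. The steps did not match. In late erythroid cells S100a8 fell mainly between libraries 1 and 2, where Slc40a1 was nearly level (56.8 and 54.8 CPM). Slc40a1 fell there mainly between libraries 2 and 3. The part of neutrophil RNA in the low Slc40a1 levels was not tested. Each neutrophil stage also had its highest Slc40a1 level in library 1 and its lowest in library 3, and the cause was not tested.

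**Figure D5:**
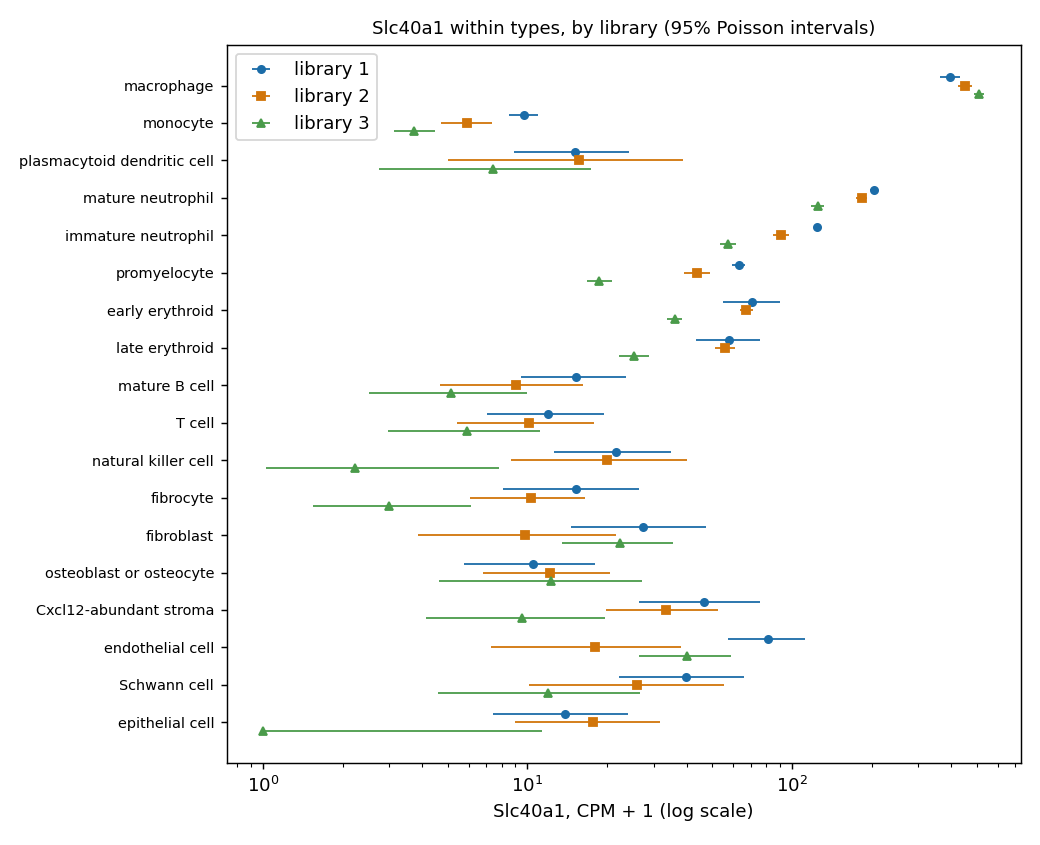
Slc40a1 CPM plus 1 (log axis) in the 18 types with at least 20 summed UMIs, by library, with 95% Poisson intervals. Library 1 lies right of library 3 in most rows, and macrophages, at 396, 450 and 510 CPM, do the reverse.

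Many of the Cp calls between libraries were in blood and glial types with little Cp. In Schwann cells it had 5.53, 4.15 and 132 CPM, and Coch, a fibrocyte gene, stood there at 11.1, 12.5 and 923 CPM. In mature B cells Cp had 2.37, 30.3 and 70.2 CPM beside 1.58, 34.8 and 330 CPM of Coch. The part of fibrocyte RNA in these values was not tested. In fibrocytes themselves Cp was not called. Among types with high Cp, fibroblasts had 1341, 908 and 581 CPM (2.31-fold) and endothelial cells 394, 1243 and 404 CPM (3.16-fold). Pericytes or smooth muscle cells had 480, 915 and 1041 CPM (2.17-fold) and osteoblasts or osteocytes 261, 84.7 and 310 CPM (3.66-fold). The highest library differed among these 4 types.

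Both ferritin chains and Cp tended the other way from ferroportin, and over a larger share of types for ferritin. Fth1 was lowest in library 1 in 19 of 21 types, Ftl1 in 17 of 21 and Cp in 15 of 21, with few ferritin ratios at 2-fold. How often other genes were lowest in library 1 was not counted, so these orders have no background to stand against. In promyelocytes Fth1 had 844, 1305 and 1730 CPM (2.05-fold), the only Fth1 call. Ftl1 passed in pericytes or smooth muscle cells alone (411, 1351 and 732 CPM, from 35, 29 and 55 cells). Tfrc was called in immature neutrophils (73.2, 67.0 and 32.5 CPM), endothelial cells and Schwann cells. Slc11a2 was called in immature and mature neutrophils at levels below 4 CPM. Slc11a1 was highest in library 2 and lowest in library 3 in both its called types, monocytes (19.7, 32.7 and 15.3 CPM) and immature neutrophils (7.72, 12.5 and 5.76 CPM).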

How the data were processed

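Single-cell 3′ RNA libraries of mouse cochlea were analysed (3 libraries, 1 per group). The authors deposited raw UMI counts, made with Cell Ranger 7.1.0 per the file headers. The submitters' processing notes name GRCm39. How cells were called was not given in the sources. Libraries held 132576349, 93048140 and 146324872 UMIs. The members and gene lists were chosen with earlier results of these data known.

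Barcodes with at least 500 UMIs, 200 genes and at most 20% mt- UMIs were kept. A marker was held when its share of a cell's UMIs exceeded 2 times the library mean. A type needed at least 3 held markers and 50% of its list (153 markers, 25 lists), and the list with the highest share held gave the name. Barcodes passing gates of 2 lineages (453, 536 and 502) were left out, and 2769, 1114 and 1793 passed no gate. Of the markers 145 were highest in their own gate, Flt3, Mmp8, Rhd, Car3, Emcn, Abcc9 and Cdh1 were higher elsewhere, and Tyrp1 was at 0.

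Calls between groups of cells needed at least 2-fold in every library and 20 summed UMIs, where 0 counts were replaced by 3 in each library. Calls between libraries needed 2-fold and 95% intervals apart. No p-value was computed, since each library is 1 sample. Intervals and floors cover counting error only. Thinning drew 1000 UMIs per cell and left out 1004 shallower cells. Genes named are all members, list genes called in a gate or with the highest levels, and the 3 genes most like each member, apart from some that are not reported here. Software was scanpy 1.11.5 (scrublet doublet calls), scipy 1.17.1, pandas 2.3.3 and numpy 2.4.6 under Python 3.11.15, with edgeR 4.0.16 under R 4.3.3 for the TMM alternative. Alternatives covered filters, gates, doublets, scaling, thinning and leaving out each library.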

Additional observations from a re-analysis of the deposited data

Results flagged for a closer look

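Barcodes kept out of the gates held signal for several members. Those that passed both a macrophage and an erythroid gate numbered 17, 16 and 71 in libraries 1, 2 and 3. In them Slc40a1 stood at 502, 257 and 611 CPM. Hmox1 stood at 1018, 597 and 1336 CPM. Tfrc stood at 315, 521 and 394 CPM. Barcodes that passed no gate (2769, 1114 and 1793) had 318, 721 and 544 CPM of Cp.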

How the results depend on the processing

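Of 504 ratios recomputed (9 genes, 4 comparisons, 14 alternatives), 480 kept their status, whether called or not called. A call was lost in 7 and newly made in 17. No called ratio changed direction, and ratios not called at first were not checked for this. The 6 genes higher in macrophages became 4 with TMM factors (Fth1 and Ftl1 lost) and 7 with a mean over cells. No gene was lower in macrophages, against 1 (Tfrc) with TMM factors. The 2 genes lower in erythroid cells became 4 with at most 10% mitochondrial UMIs and with 1 fewer marker, a setting chosen after seeing the data, and 1 with 1 more marker or after thinning. Thinning left 5 genes with 1 highest type in every library and 18 called pairs of gene and type, of 87 that kept 20 UMIs. The 4 genes higher in Vcam1-high macrophages became 3 when barcodes of 2 lineages were kept (Tfrc lost). Leaving out 1 library in turn gave 0 to 1 genes lower in macrophages, 2 to 4 lower in erythroid cells and 3 to 6 lower in fibrocytes. The upper values came without library 1, which had the fewest erythroid cells, and the cause was not tested. In these runs without 1 library, genes higher in macrophages, erythroid cells, fibrocytes and Vcam1-high macrophages stayed at 6, 2, 1 and 4. A call needed 2-fold in every library used, so leaving 1 out eased the rule. These counts could therefore not fall while 20 summed UMIs remained, and their stability is no check of the calls. The 2 genes higher in erythroid cells became 3 (Fth1 added) with TMM factors and with 1 more marker. No paired analysis was possible because each group has 1 library and no label ties a library to a group. Depth limits the low members: Cd163 and Slc11a1 reached 20 summed UMIs in 6 and 7 types, so their differences between libraries were not measurable elsewhere.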

Other observations

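Hamp, which encodes the iron hormone hepcidin, had its highest level among the compared types in epithelial cells, at 30.5, 286 and 14.0 CPM in libraries 1, 2 and 3. The signal rested on few cells: 1 of 58, 5 of 34 and 1 of 20 epithelial cells held a UMI, with 26, 172 and 5 UMIs in all and up to 72 UMIs in 1 cell. Over all kept barcodes Hamp had 99, 200 and 28 UMIs in 61, 32 and 24 cells, so most of it lay outside epithelial cells in libraries 1 and 3. Bmp6, known in the liver as a signal that raises hepcidin, was highest in Cxcl12-abundant stroma at 206, 133 and 117 CPM, and the next type, epithelial cells, had 32.8, 6.66 and 16.8 CPM. Haptoglobin (Hp) was also highest in Cxcl12-abundant stroma, at 1712, 1753 and 3903 CPM, followed by mature neutrophils at 1360, 1332 and 2110 CPM. Steap4, a metalloreductase, peaked in pericytes or smooth muscle cells at 140, 76.7 and 129 CPM. Hjv and Ftmt had 0 UMIs in the gated cells.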
